A study of Mus musculus with 6 samples.

Results

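The 9 genes described here encode the transcription factors and nuclear receptors that define the hepatocyte: Hnf4a, Foxa1, Foxa2, Foxa3 and Cebpa as liver transcription factors, and Nr1h4, Nr1i2, Nr1i3 and Ppara as ligand-activated receptors. They were chosen by name from the 56884 mouse genes of the count table, and all 9 were found and passed the filter of at least 10 counts in total. Their levels were followed in 6 bulk liver libraries, 3 labelled siControl and 3 labelled siAATF. Both groups were male athymic BALB/c (nu/nu) mice, 6 weeks old per the labels, with cells of the human hepatocellular carcinoma (HCC) line QGY-7703 implanted in the liver. Each mouse received the adeno-associated virus AAV8 by tail vein 1 week after implantation, carrying a control siRNA (genotype WT, treatment control AAV) or an siRNA against mouse Aatf (genotype KD, treatment siAATF AAV), and was followed for 3 more weeks. The TBG promoter of the vector is active in hepatocytes. The host lacked a thymus and therefore most T cells. The sources do not say whether each library came from a separate mouse, and p-values measure the spread between these libraries only.

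HNF4A, the FOXA proteins and C/EBPα bind together at the enhancers of hepatocyte genes, and they also bind each other's regulatory regions, so that the network sustains itself in the adult liver. FOXA proteins open compact chromatin, HNF4A, itself of the nuclear receptor family, sustains transport, clotting factor and metabolic genes, and C/EBPα drives genes of the postnatal liver. The receptors read metabolites: FXR (Nr1h4) senses bile acids, PXR (Nr1i2) and CAR (Nr1i3) sense drugs and other foreign compounds, and PPARα (Ppara) senses fatty acids and drives their oxidation in fasting. All 4 receptors bind DNA with the partner RXRα (Rxra).

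The libraries differed first of all in species. Mouse genes held 0.778% to 1.93% of all gene counts in the siControl libraries (213022 to 913584 mouse counts) and 97.9% to 99.0% in those labelled siAATF (11835898 to 42563694 mouse counts). A limit of 3 counts was thus 3.28 to 14.1 CPM (counts per 1000000 mouse counts) in siControl against 0.0705 to 0.253 CPM in siAATF. The markers of liver cell types differed as well after TMM normalization, which scales libraries by the trimmed mean of the gene ratios, and CPM below are TMM-scaled where no other scaling is named. The 10 hepatocyte markers summed to 8877 to 20808 CPM in siControl against 57232 to 193387 CPM in siAATF, and 9 of them were called higher. None of these markers was at 0 in either group. Fibroblast markers summed to 8320 to 12365 CPM in siControl against 339 to 488 CPM in siAATF (6 of 7 lower), and macrophage markers to 1071 to 2806 CPM and 65.9 to 120 CPM (5 of 5 lower). Of the endothelial markers 3 of 5 were lower, and of the cholangiocyte markers 2 of the 6 tested, Epcam and Spp1, were lower, with Cftr at 0 in all 3 siControl libraries. None of the 5 erythroid markers was called. In bulk tissue, fewer hepatocytes and less RNA per hepatocyte cannot be told apart, and the part of tissue makeup in the results below was not tested apart from the values given.

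The siRNA target itself had 12, 1 and 23 counts in siControl replicates 1 to 3 against 384, 109 and 340 counts in the libraries labelled siAATF. The mean TMM-scaled level of Aatf was 8.28 ± 5.33 CPM in siControl against 18.0 ± 4.42 CPM in siAATF (SD, n = 3), a difference of 0.93 on the log2 scale (SE 0.47) that was not called (adjusted p = 0.152, edgeR). Its direction depended on the scaling: it was 5.04 against the human and mouse total (adjusted p = 3.77e-10), -0.91 against the mouse total alone (adjusted p = 0.176) and -1.91 against the 10 hepatocyte markers (adjusted p = 0.0309), where the median of all genes was -2.49 and 54.5% were called lower. The median of all genes was 4.66 against the human and mouse total and -1.30 against the mouse total alone. The counts therefore gave no scaling-free check of the knockdown, and the groups are named by their labels throughout.

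The stretches before the transcription start of 4 of the 9 genes are shown because each holds a match to one of the motifs named next. They are RefSeq promoter sequences from a GRCm38.p6 table, and each was located by an exact, single match to its chromosome in GRCm39. Capitals mark the matches to these motifs, with the letters as they run on the gene's own strand: TATAAA is a TATA box, TGACCT is a nuclear receptor half-site (AGGTCA on the other strand) and GTAAACA and GTAAATA are forkhead motifs (TGTTTAC and TATTTAC on the other strand).
Foxa1, chr12:57592948-57593147, minus strand: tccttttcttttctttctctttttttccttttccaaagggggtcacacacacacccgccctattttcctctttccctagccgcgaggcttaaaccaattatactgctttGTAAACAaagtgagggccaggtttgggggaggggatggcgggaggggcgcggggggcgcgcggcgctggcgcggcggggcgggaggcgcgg
Cebpa, chr7:34818468-34818717, plus strand: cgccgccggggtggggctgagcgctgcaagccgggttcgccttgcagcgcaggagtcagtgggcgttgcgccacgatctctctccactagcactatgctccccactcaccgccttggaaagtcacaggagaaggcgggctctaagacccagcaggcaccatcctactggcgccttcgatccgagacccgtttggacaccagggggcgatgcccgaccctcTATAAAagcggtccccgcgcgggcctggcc
Nr1h4, chr10:89342521-89342770, minus strand: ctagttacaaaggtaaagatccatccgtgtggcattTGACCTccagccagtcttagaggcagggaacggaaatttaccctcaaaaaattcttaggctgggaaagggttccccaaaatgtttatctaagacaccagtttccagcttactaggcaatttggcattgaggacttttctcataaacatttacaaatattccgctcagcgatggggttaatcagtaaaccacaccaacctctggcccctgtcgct
Nr1i2, chr16:38115237-38115436, minus strand: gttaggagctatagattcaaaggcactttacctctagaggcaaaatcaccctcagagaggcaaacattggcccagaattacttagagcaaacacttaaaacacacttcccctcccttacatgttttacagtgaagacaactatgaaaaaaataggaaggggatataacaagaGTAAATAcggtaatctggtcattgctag

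The Cebpa and Nr1h4 sequences are the 250 bases before the start site, and the Foxa1 and Nr1i2 sequences are the first 200 of these bases. Counted from the start site, the forkhead motif began at -141 in Foxa1 and at -78 in Nr1i2, and the nuclear receptor half-site at -214 in Nr1h4. Windows of 300 bases, 250 before and 50 after the start, were searched on both strands, and 12 such windows matched the 9 genes. A TATA box, TATAAA, was at -30 in Cebpa, at -36 in Foxa3 and, on the opposite strand, at -208 in Foxa2, and was in 13.6% of all 32851 mouse promoter windows. The forkhead motifs were rarer, with TGTTTAC in the Foxa1 window and in 3.65% of all windows, and TATTTAC in the Nr1i2 window and in 3.04%. The nuclear receptor half-site AGGTCA was in the Nr1h4 window and in 16.3% of all. The longer motifs CAAAGTCCA for HNF4 (0.475% of all windows) and TTGCGCAA for C/EBP (0.183%) were in none of the 12 windows, and the windows of Hnf4a, Nr1i3 and Ppara held none of these motifs. A match describes letters and is not a binding site.

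The windows also differed in base composition. The Ppara window had 74.7% G and C and the Cebpa window 67.3%, against a median of 52.7% over all windows. The ratio of observed to expected CpG was 0.853 for Cebpa and 0.929 for Foxa1, which is typical of a CpG island, and 0.130 for Nr1i2, 0.144 for Nr1i3 and 0.163 for the Hnf4a window next to the deposited gene, where the median of all windows was 0.384. The start site of that Hnf4a window lies 32 bases before the start of the deposited gene. A second RefSeq start of Hnf4a lies 40330 bases before the deposited gene, so that reads of a first exon there would not have been counted.

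With libraries scaled by TMM, 8 of the 9 genes were called higher in the libraries labelled siAATF and 0 lower (edgeR quasi-likelihood test, adjusted p under 0.05). The fitted differences of 7 of the 9 turned negative when Alb, the gene of serum albumin, stood for library size. With Alb the median of all genes was -3.49, and 66% were called lower and 0.538% higher. With TMM, of all 18018 mouse genes tested, 17.6% were called higher and 14.4% lower, and the median difference was 0.50 on the log2 scale. The 5 liver factors had a median log2 difference of 2.78, which is 2.28 above that of all genes, and the 4 receptors had a median of 3.97, which is 3.47 above it, or of 2.90 with Nr1i3 at the lower end of its counting interval. By the rule of an unadjusted p under 0.05 with a log2 difference of at least 2, 7 of the 9 were higher, where 13.6% of all genes were. In all 9, every library labelled siAATF lay above every siControl library, as it did in 34.5% of all genes tested. The levels by library are plotted on a log scale.

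**Figure D1:**
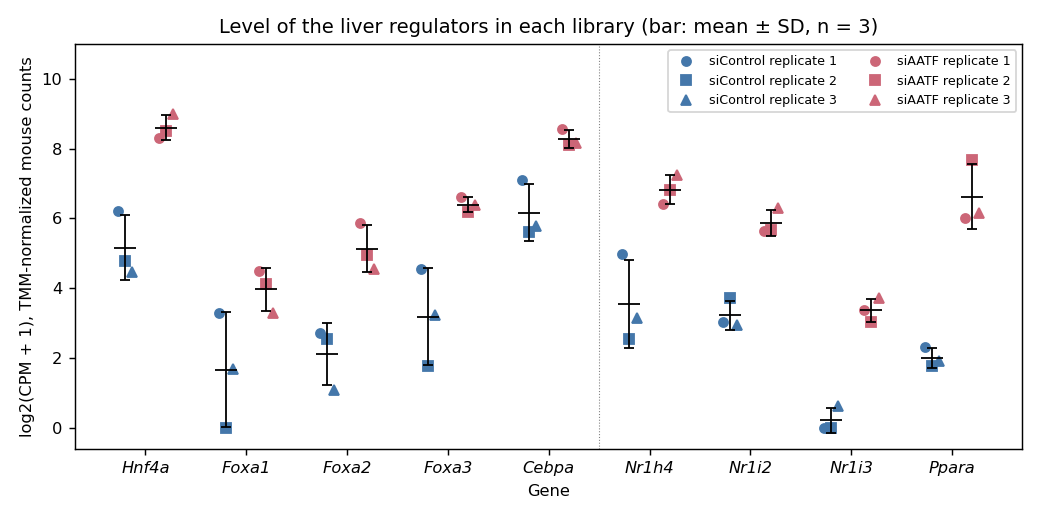
Level of each regulator in each library as log2(CPM + 1) of TMM-normalized mouse counts, siControl in blue and siAATF in red, with symbols for replicates 1 to 3 and bars for the mean ± SD of these log values (n = 3). On this scaling all 9 genes lie higher in siAATF, with Foxa1 the closest to overlap and Nr1i3 at 0 in 2 of the 3 siControl libraries. Scaling by Alb turned 7 of the 9 differences negative, where the median of all genes was -3.49.

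Hnf4a, the central regulator of hepatocyte identity, is on chr2:163389107-163414830 (plus strand, GRCm39) with 10 merged exons. It had 92, 11 and 38 counts in siControl replicates 1 to 3 against 9166, 1812 and 9167 in siAATF replicates 1 to 3. Scaled by TMM these were 73.8, 26.5 and 21.2 CPM against 316, 365 and 508 CPM. Replicate 1 was the highest siControl library, and the lowest siAATF library was far above it. The means were 40.5 ± 28.9 and 396 ± 99.7 CPM (SD, n = 3), and the log2 difference was 3.27 (SE 0.57, adjusted p = 0.000895, edgeR). It was 4.07 without siControl replicate 1 and 2.93 without siControl replicate 3.

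Among the forkhead factors, which open chromatin at liver enhancers, Foxa2 (chr2:147884797-147888889, minus strand) had 7, 2 and 2 counts in siControl against 1682, 150 and 409 in siAATF. Its level was 5.61, 4.83 and 1.11 CPM against 58.0, 30.2 and 22.7 CPM, with means of 3.85 ± 2.40 and 37.0 ± 18.6 CPM (SD, n = 3) and a log2 difference of 3.44 (SE 0.62, adjusted p = 0.00111, edgeR), which was 4.19 without siControl replicate 1 and 2.77 without siControl replicate 3. Foxa3 (chr7:18747209-18757463, minus strand), a forkhead factor of the adult liver, had 28, 1 and 15 counts and 2816, 354 and 1489 counts. Its siControl levels spread widely, at 22.5, 2.41 and 8.36 CPM, while its siAATF levels of 97.1, 71.3 and 82.5 CPM were close together. The log2 difference was 2.78 (SE 0.53, adjusted p = 0.00165, edgeR), or 3.68 without siControl replicate 1 and 2.46 without siControl replicate 2.

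Foxa1 (chr12:57587414-57592907, minus strand) was the member that did not pass the test. Its counts were 11, 0 and 4 in siControl against 627, 81 and 160 in siAATF, which scaled to 8.82, 0 and 2.23 CPM and to 21.6, 16.3 and 8.87 CPM. The highest siControl library, replicate 1, and the lowest siAATF library, replicate 3, were almost equal. The means were 3.68 ± 4.59 and 15.6 ± 6.40 CPM (SD, n = 3), and the log2 difference of 1.86 (SE 0.67) had an adjusted p of 0.0506 (edgeR). Without siControl replicate 1 it was called at 3.18 (adjusted p = 0.0141) and without siAATF replicate 3 at 2.23 (adjusted p = 0.00483), while without any one of the other 4 libraries it was not called, down to 1.42 without siControl replicate 3 (adjusted p = 0.239). By DESeq2 it was called at 1.82 (adjusted p = 0.0423).

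Cebpa (chr7:34818718-34821353, plus strand, 1 exon), which encodes a leucine zipper factor of mature, non-dividing hepatocytes, had 170, 20 and 97 counts in siControl against 11038, 1367 and 5133 in siAATF. It had the highest siControl level of the 9 genes, at 136, 48.3 and 54.0 CPM, and reached 380, 275 and 284 CPM in siAATF. The log2 difference of 1.96 (SE 0.50, adjusted p = 0.00939, edgeR) was the smallest among the 8 called genes. The call was lost without siControl replicate 2 (1.72, adjusted p = 0.0543) or without siControl replicate 3 (1.72, adjusted p = 0.0810), and the difference was 2.60 without siControl replicate 1. An opposite-strand lncRNA, Gm45091, shares 51 exonic bases with Cebpa and had 0 counts in siControl against 10, 0 and 8 in siAATF.

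Of the receptors, Nr1h4 (chr10:89290096-89369447, minus strand), the bile acid receptor FXR, had 38, 2 and 14 counts in siControl against 2428, 557 and 2739 in siAATF. Its level was 30.5, 4.83 and 7.80 CPM against 83.7, 112 and 152 CPM, and again replicate 1 was the highest siControl library. The means were 14.4 ± 14.0 and 116 ± 34.2 CPM (SD, n = 3), with a log2 difference of 2.92 (SE 0.58, adjusted p = 0.00215, edgeR). It was 4.07 without siControl replicate 1 and 2.55 without siControl replicate 3. The printed start site of Nr1h4 lies 26927 bases inside the deposited gene, which begins at another start.

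Nr1i2 (chr16:38068685-38115186, minus strand), the receptor PXR for drugs and bile acids, had 9, 5 and 12 counts in siControl against 1431, 247 and 1393 in siAATF. Its siControl levels of 7.22, 12.1 and 6.69 CPM rested on few counts in each library, and in siAATF it had 49.3, 49.8 and 77.2 CPM. The log2 difference was 2.88 (SE 0.43, adjusted p = 0.000335, edgeR). Here siControl replicate 2, the shallowest library, was the highest of its group.

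Nr1i3 (chr1:171041539-171048270, plus strand), the receptor CAR, was at the limit of detection in siControl, with 0, 0 and 1 counts, and had 270, 36 and 218 counts in siAATF, or 9.31, 7.25 and 12.1 CPM. The ratio of its pooled counts over the TMM-scaled library sizes was 34.8, with a 95% exact interval of 6.22 to 1378 that covers counting error only, and it was called higher (adjusted p = 0.00115, edgeR). It passed the filter on low counts through siAATF alone, and 7 of the other 8 members were called. Its fitted log2 difference of 5.02 became 9.69 without siControl replicate 3 and 4.39 without siControl replicate 1, so that the single count set its size. Its counts are uncertain in another way. Of its 3270 exonic bases, 2160 are shared with Tomm40l on the opposite strand, which had 7, 1 and 5 counts in siControl against 616, 91 and 287 in siAATF, and the sources used here do not state whether strand was used in counting.

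Ppara (chr15:85619765-85687020, plus strand), the fatty acid receptor of fasting, had 5, 1 and 5 counts in siControl against 1863, 1018 and 1272 in siAATF. In siControl it was low in every library, at 4.01, 2.41 and 2.79 CPM. In siAATF it had 64.2, 205 and 70.5 CPM, with replicate 2, the shallowest library of that group, far above the other two. The means were 3.07 ± 0.835 and 113 ± 79.6 CPM (SD, n = 3). The log2 difference of 5.14 (SE 0.64, adjusted p = 0.000112, edgeR) was the largest among the 9 genes when fitted with TMM and all libraries. Without siAATF replicate 2 it was 4.47 and stayed called, below the 5.23 of Nr1i3.

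Levels of different genes were compared per length, as TMM-scaled counts per kilobase of exon in CPM (RPKM). In siAATF the order of the mean levels was Cebpa (119 ± 22.1), Hnf4a (90.9 ± 22.9), Nr1h4 (50.3 ± 14.8), Foxa3 (41.1 ± 6.34), Ppara (32.0 ± 22.5), Nr1i2 (23.0 ± 6.25), Foxa2 (17.0 ± 8.53), Foxa1 (4.89 ± 2.01) and Nr1i3 (2.92 ± 0.741 RPKM, SD, n = 3). The ranges of neighbours overlapped except between Hnf4a and Nr1h4 and between Foxa2 and Foxa1, so only these steps exceeded the spread between libraries. In siControl Cebpa led at 30.2 ± 18.7 RPKM, above Hnf4a at 9.28 ± 6.64 RPKM without overlap, and Nr1i3 was again the lowest. The order of the leading 4 genes was the same in both groups. Ppara stood at rank 8 in siControl, at 0.868 ± 0.236 RPKM, and at rank 5 in siAATF.

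A share among the 9 genes does not depend on how libraries are scaled against each other. Cebpa made up 50.6%, 51.9% and 54.5% of the summed counts per kilobase of the 9 genes in siControl and 38.5%, 28.2% and 27.1% in siAATF. Its share was lower in every siAATF library, with a mean of 52.3 ± 1.97% against 31.3 ± 6.31% (SD, n = 3, two-sided exact permutation p = 0.1, the smallest that 3 against 3 libraries allow). The share of Hnf4a was higher in every siAATF library, at 19.3%, 22.6% and 29.3% against 16.6%, 17.2% and 12.9% (exact p = 0.1). The share of Ppara was also higher in every one, at 4.85%, 15.6% and 5.01% against 1.11%, 1.93% and 2.09% (exact p = 0.1). That of Nr1i3 was 0.760%, 0.599% and 0.929% against 0, 0 and 0.453% (exact p = 0.1), where the 0.453% was 1 count. In siControl replicate 2 the 1 count of Ppara, a longer gene, made up 1.93%, above every siAATF share of Nr1i3. The 0 of Nr1i3 in that library therefore cannot show a lower share. The shares of Foxa1, Foxa2, Foxa3, Nr1h4 and Nr1i2 overlapped between the groups. A share ties the 9 values together, so that a lower share of one gene raises the shares of others.

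**Figure D2:**
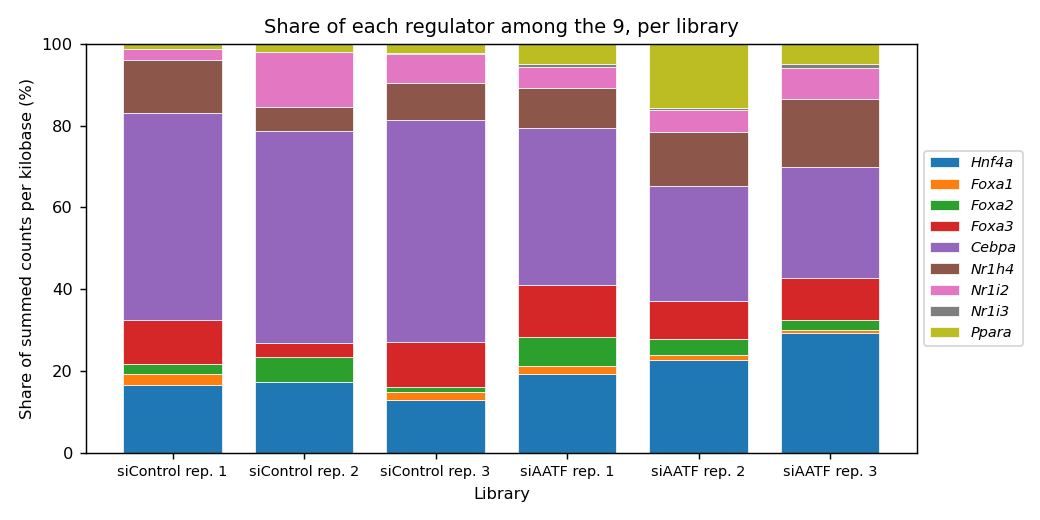
Share (%) of each of the 9 regulators in their summed counts per kilobase, 1 bar per library, with the gene colors stacked from Hnf4a at the bottom to Ppara at the top. The Cebpa segment spans 50.6% to 54.5% in the 3 siControl libraries and 27.1% to 38.5% in the 3 siAATF libraries, and the Ppara segment is thicker in siAATF.

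How the 9 genes compared with other hepatocyte RNA was asked by dividing their counts by those of the 10 hepatocyte markers. Per 1000000 marker counts, Cebpa had 6552, 5436 and 5415 in siControl against 3196, 4812 and 1471 in siAATF, lower in every siAATF library (ratio of means 0.545, two-sided exact permutation p = 0.1). Ppara had 193, 272 and 279 against 539, 3583 and 364 (ratio 6.03, exact p = 0.1), higher in every siAATF library, though replicate 2 carried most of the mean. Nr1i3 had 0, 0 and 55.8 against 78.2, 127 and 62.5 (exact p = 0.1), also without overlap. A single count in siControl replicate 2, as Ppara had, stood for 272, above every Nr1i3 value in siAATF. The 0 of Nr1i3 in that library therefore cannot show a lower level. The other 6 genes overlapped between the groups, with ratios of means from 0.708 for Nr1i2 to 1.35 for Hnf4a. Of all genes tested, 50.2% were lower and 11.6% higher without overlap on this scale. Trf, the transferrin gene, supplied much of the marker sum in siControl (11615, 1843 and 9381 counts) and was itself not called. With Trf left out of the sum or with Alb alone, both chosen after the values were seen, Cebpa was still lower in every siAATF library (ratios 0.327 and 0.267), as were 55.7% and 56.8% of all genes tested, while Ppara and Nr1i3 overlapped.

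Fitted with these denominators as library size, the log2 difference of Cebpa was -0.88 for the 10 markers (adjusted p = 0.269), -1.62 without Trf (adjusted p = 0.0306) and -1.91 with Alb (adjusted p = 0.0130, edgeR). On these scalings the median of all genes tested was -2.49, -3.24 and -3.49, below Cebpa each time, and 54.5%, 64.7% and 66% of all genes were called lower, against 1.45%, 0.738% and 0.538% called higher. That of Ppara was above 0 under every alternative run and that of Nr1i3 as well, although with Alb neither was called (1.70, adjusted p = 0.0781, and 1.04, adjusted p = 0.668), and Nr1i3 was not called with the 10 markers (2.02, adjusted p = 0.343) or without Trf (1.29, adjusted p = 0.567) either. Scaled by the mouse total alone, 4 of the 9 genes were called higher, where 4.15% of all genes were higher and 40.3% lower, and the median over all genes tested was -1.30. On that scale Cebpa had 242, 93.9 and 106 CPM in siControl against 259, 115 and 147 in siAATF, which overlapped. Against all human and mouse counts all 9 were higher without overlap, as were 83.9% of all genes tested, with ratios of means of at least 68.8 (Foxa1), and the mouse share of the libraries moved with them.

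**Figure D3:**
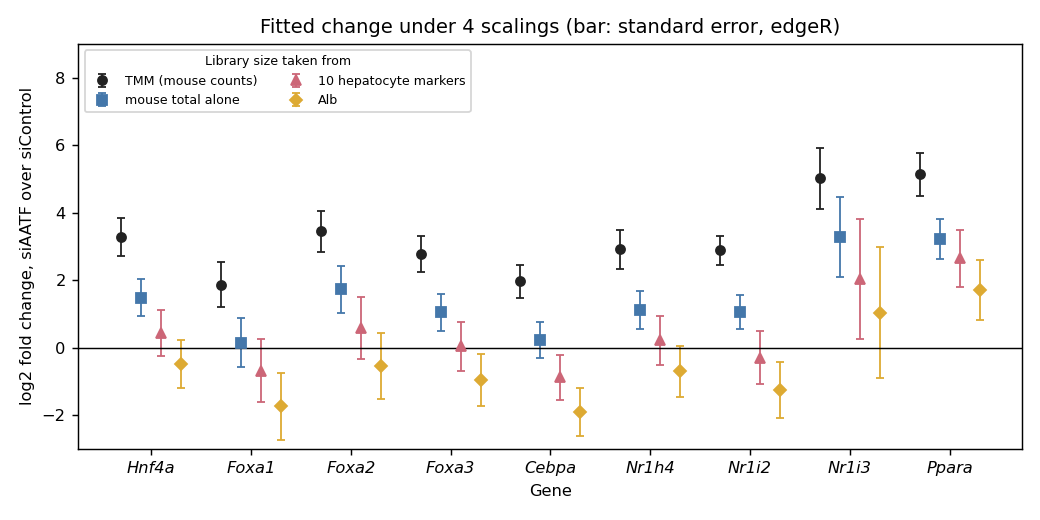
Fitted log2 difference of each regulator, siAATF over siControl, with its standard error from edgeR, for library sizes from TMM, the mouse total alone, the 10 hepatocyte markers or Alb. All 9 points lie above 0 for TMM, 6 of 9 for the hepatocyte markers and 2 of 9, Nr1i3 and Ppara, for Alb, with Cebpa and Foxa1 the lowest on the last. The median of all genes tested was 0.50 for TMM, -1.30 for the mouse total alone, -2.49 for the hepatocyte markers and -3.49 for Alb.

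The wider network was read from 95 other genes in 8 lists. With TMM 55 were called higher, 4 lower and 36 neither, with a median log2 difference of 2.33 against 0.50 for all genes, but with the hepatocyte markers as library size 12 were higher and 30 lower (median -0.56), where 1.45% of all genes were higher and 54.5% lower (median -2.49). Of the 95 genes, 18 had under 10 counts over the siControl libraries and passed the filter through siAATF, and 7 of these 18 were among the 55, while 48 of the other 77 were called higher. Of the 55, 20 had a negative fitted difference with the hepatocyte markers as library size. Of 17 other liver transcription factors 11 were higher and 1 lower (median 1.75), and with the hepatocyte markers as library size 1 was higher and 6 were lower (median -0.96). Onecut1, a liver developmental factor that acts upstream of Hnf4a, had 4, 0 and 2 counts in siControl against 2127, 382 and 223 in siAATF. Its log2 difference with TMM was 4.96 (adjusted p = 0.000876, edgeR), and it was among the 7 called genes that passed the filter through siAATF. Mlxipl, the glucose-responsive factor ChREBP, differed by 4.23 (adjusted p = 5.34e-05).

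The network lists held 2 further C/EBP genes. Cebpd, an acute-phase factor, was called lower at -2.88 (SE 0.56, adjusted p = 0.00188, edgeR), with 72.7 ± 19.2 CPM in siControl against 9.62 ± 7.80 CPM in siAATF (SD, n = 3). Cebpb, which acts in inflammation and regeneration, had 146 ± 39.6 and 116 ± 81.1 CPM and was not called (-0.31, adjusted p = 0.660). Both genes are also expressed in macrophages and fibroblasts, whose markers were lower in siAATF, and the part of those cells in these values was not tested.

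Of 19 receptor partners and relatives 11 were higher and 1 lower with TMM (median 1.54), and 0 were higher and 8 lower with the hepatocyte markers as library size (median -1.50). Rxra, the shared partner of all 4 receptors, had 124, 22 and 109 counts in siControl against 11162, 1602 and 6527 in siAATF. It rose by 2.31 on the log2 scale with TMM (SE 0.44, adjusted p = 0.00173, edgeR). With the hepatocyte markers as library size it was at -0.65, where the median of all genes was -2.49. Thrb, a thyroid hormone receptor, rose by 4.20 with TMM (adjusted p = 0.000256, edgeR). Nr1h2, an oxysterol receptor found in most cells, and Pparg, the fat cell relative of Ppara, were not called at 0.51 and -0.06. Vdr, the vitamin D receptor, was the gene called lower, with 1, 1 and 4 counts in siControl and 1, 0 and 3 in the far deeper siAATF libraries (-4.25, adjusted p = 0.0170).

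Coregulators, which receptors recruit to act on chromatin, had the lowest median of the 8 lists, 0.94 with TMM, with 4 of 12 called higher and 0 lower. With the hepatocyte markers as library size 0 were higher and 7 lower (median -1.88, against -2.49 for all genes, 54.5% of them lower). The fasting coactivators Ppargc1a and Ppargc1b were among the 4 called higher with TMM. Ppargc1a had 1 count in each siControl library and 399, 64 and 172 in siAATF, a pooled ratio of 14.1 (95% exact interval 4.79 to 68.4, counting error only), and Ppargc1b differed by 3.16 (adjusted p = 0.0135, edgeR). Both had under 10 counts over the siControl libraries and passed the filter through siAATF. The coactivator Ncoa3 was not called at -0.73.

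Of 9 target genes of HNF4A 8 were called higher with TMM (median 3.16), and 3 were higher and 1 lower with the hepatocyte markers as library size. Cyp8b1, which makes cholic acid, had 4, 0 and 2 counts in siControl against 13074, 686 and 1503 in siAATF (7.01, SE 0.89, adjusted p = 0.000126, edgeR). With under 10 counts over the siControl libraries, it passed the filter through siAATF. Otc, the urea cycle gene, had 19, 0 and 4 against 17532, 2910 and 10467 counts (6.48, adjusted p = 0.000139). The clotting factor gene F7 rose by 2.53 with TMM (adjusted p = 0.00161, edgeR). With the hepatocyte markers it was at -0.55, where the median of all genes was -2.49. The lipoprotein gene Apoa4 was not called at 1.17 with TMM (adjusted p = 0.201, edgeR). These TMM differences stood beside one of 3.27 for Hnf4a itself.

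Targets of FOXA and C/EBPα were called in all 6 cases, 5 higher and 1 lower with TMM (median 3.71), and 3 higher and 1 lower with the hepatocyte markers as library size. Cps1, the first enzyme of the urea cycle, rose by 5.67 (adjusted p = 0.000156, edgeR) and Tat, a glucocorticoid-induced enzyme of tyrosine breakdown, by 4.92 (adjusted p = 0.000266). Gys2, the liver glycogen synthase, rose by 2.59 with TMM (adjusted p = 0.0104, edgeR). With the hepatocyte markers it was at -0.56, where the median of all genes was -2.49. Igfbp1, a secreted binding protein of insulin-like growth factors, fell with TMM, with 189 ± 77.9 CPM in siControl against 20.9 ± 19.5 CPM in siAATF (SD, n = 3, -3.16, adjusted p = 0.00690, edgeR). Igfbp1 and Cebpd were lower on every scaling of the mouse counts that was run. Against the human and mouse total they were not (1.12, adjusted p = 0.0902, and 1.45, adjusted p = 0.0329, edgeR), where the median of all genes was 4.66.

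Bile acid genes that FXR controls were called higher in 5 of 7 cases with TMM and in 2 of 7 with the hepatocyte markers as library size. The median was 4.39, and it was 3.40 when Slc51a and Slc51b, which had no count in siControl, were put at their lower bound against 3 counts over that group. Slc27a5 and Abcb11, for conjugation and canalicular export of bile acids, rose by 5.36 (adjusted p = 0.000181, edgeR) and 4.90 (adjusted p = 0.000139). Nr0b2, the repressor SHP through which FXR acts on bile acid synthesis, had 13, 3 and 7 counts in siControl against 3390, 260 and 936 in siAATF, a rise of 3.40 (SE 0.53, adjusted p = 0.000463). Abcb4, the phospholipid exporter, rose by 2.33 with TMM (adjusted p = 0.00231, edgeR). With the hepatocyte markers it was at -0.52, where the median of all genes was -2.49. The difference of Nr1h4 itself was 2.92 with TMM.

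Drug metabolism genes of PXR and CAR were called higher in 5 of 10 cases, with a median of 4.24, or 2.05 with the 3 genes at 0 in siControl put at their bound, and with the hepatocyte markers as library size 3 were higher and 2 lower. Ces2a, a carboxylesterase, had 1 count in each siControl library and 13897, 1355 and 2162 in siAATF, a pooled ratio of 386 (95% exact interval 132 to 1870, counting error only). Slco1a4, an uptake transporter, had 0 counts in siControl against 731, 68 and 359 in siAATF, which is at least 25.6-fold higher against 3 counts over the siControl group. Ces2a and Slco1a4 are among the 5 called, but both had under 10 counts over the siControl libraries and passed the filter through siAATF. Por, the electron donor of cytochromes P450, and Abcc3, a basolateral exporter, were not called at 1.24 (adjusted p = 0.0848) and 0.13 (adjusted p = 0.838).

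Of 16 fatty acid genes of PPARα, 7 were called higher and 1 lower with TMM (median 1.74). With the hepatocyte markers as library size 0 were higher and 5 lower (median -1.23, against -2.49 for all genes, 54.5% of them lower). The peroxisomal enzymes Acaa1b and Ehhadh rose by 3.58 and 3.48 (adjusted p = 0.00150 and 0.00243, edgeR). Plin2, a lipid droplet coat, and Angptl4, an inhibitor of lipoprotein lipase, were not called, at 0.23 and -0.42, and siControl already held 540, 73 and 408 counts of Plin2 and 75, 18 and 96 of Angptl4. Vnn1, a pantetheinase, was called lower at -2.51 (adjusted p = 0.0357), with 25, 1 and 16 counts in siControl against 10, 10 and 66 in siAATF, and its CPM values overlapped between the groups. Igfbp1, Cebpd, Vdr and Vnn1 were the 4 network genes called lower with TMM, of which Vdr and Vnn1 are named here after their values were seen.

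**Figure D4:**
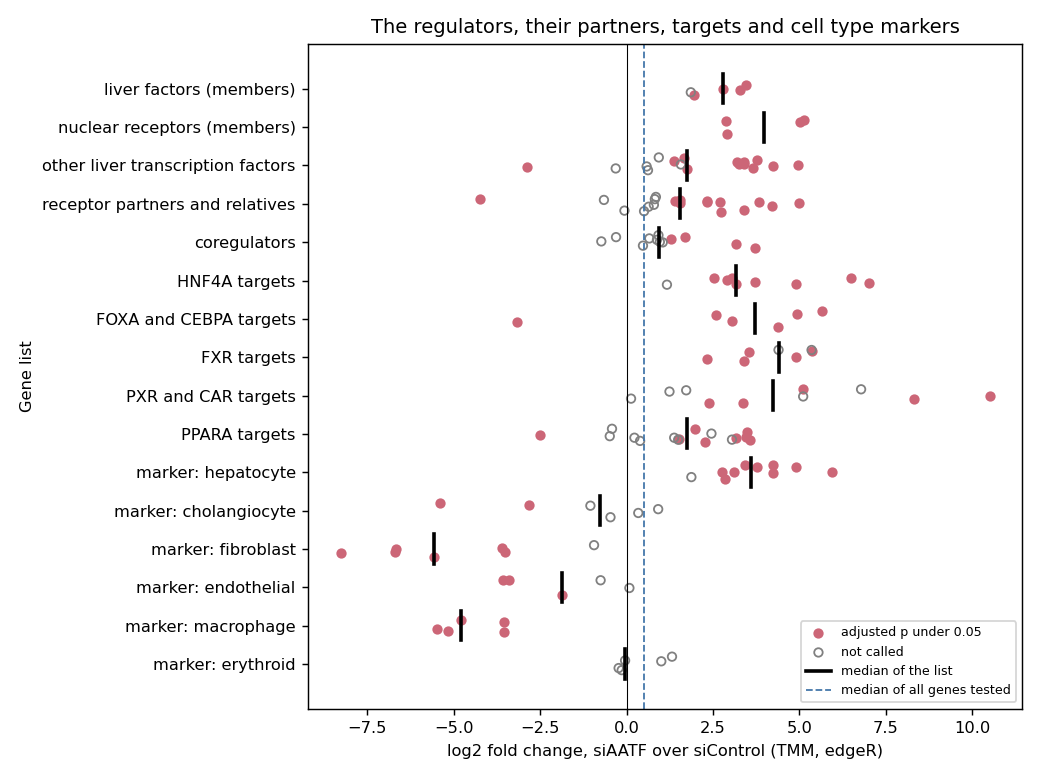
Fitted log2 difference with TMM, siAATF over siControl, for each tested gene of the 2 member lists, the 8 lists of other network genes and the 6 marker lists, filled where the adjusted p was under 0.05, with a black bar at the list median and a dashed line at the median of all genes (0.50). With genes at 0 in siControl put at their bound, the medians of the 8 network lists run from 0.94 for coregulators to 3.71 for FOXA and C/EBPα targets (the bars show fitted values, 4.39 for FXR and 4.24 for PXR and CAR targets), and those of the 5 marker lists other than hepatocyte lie below 0 (-0.04 for erythroid markers). With the hepatocyte markers as library size the medians of other liver factors, partners, coregulators and PPARα targets fall below 0, where that of all genes is -2.49.

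Among 9457 other genes with enough counts, the 5 whose log2 levels ran most like the mean of the 9 across the 6 libraries were Agxt, Lamtor4, Rbm47, Serpina1c and Cgn (Pearson r 0.9991 to 0.9986). Such values were common, as 22.1% of these genes had r above 0.9. Agxt, a peroxisomal liver enzyme, and Serpina1c, a secreted protease inhibitor of hepatocytes, had log2 differences of 5.61 and 6.60. Lamtor4, a lysosomal scaffold subunit, Rbm47, an RNA-binding protein, and Cgn, a tight junction protein, differed by 1.89, 2.53 and 3.23.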

How the data were processed

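Gene counts of 6 bulk liver libraries, 3 in each group, were analysed, with groups and replicate numbers from the sample titles. The authors prepared SMART-Seq libraries, aligned the reads with STAR 2.7.11 to a joined human and mouse genome (GRCm39 for mouse), removed reads with several places or both species, and deposited raw counts per gene from featureCounts 2.0.1, without normalization. PCR copies are not independent molecules, so intervals and limits cover counting error only.

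The mouse table was tested as a whole with edgeR 4.0.16 (limma 3.58.1, R 4.3.3): TMM factors, genes with at least 10 counts in total (18018), the quasi-likelihood test with the group as the only term, and Benjamini-Hochberg adjustment over all genes. An adjusted p under 0.05 was a call. Names came from gencode release 39 for 56323 of the 56884 identifiers. The table was counted on release 33, and its coordinates and lengths were used. Human counts served for totals only. 0 count columns were left unassigned. Members and gene lists were chosen with earlier results of these data known. Beside the 9 members, per list the 2 largest and the 2 smallest differences among genes with a mean of at least 50 counts were named, with Rxra, Nr0b2 and Aatf. Some items that this rule names are not reported here. The ratios and shares were compared by exact permutation tests, which with 3 libraries against 3 cannot go below 0.1.

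Alternatives were DESeq2 1.42.0, limma-voom, other scalings and filters, thinning, the replicate number as a block, and leaving out each library. Alb and the markers without Trf as library size, and leaving out libraries for the marker ratios, were added after seeing the data. Figures used matplotlib 3.10.9 in Python 3.11.15.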

Additional observations from a re-analysis of the deposited data

How the results depend on the processing

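Counts of calls moved with the scaling and with the strictest filter. The members called higher (8 of 9 with TMM) numbered 4 with the mouse total alone, 1 with the hepatocyte marker sum, 1 with that sum without Trf and 0 with Alb as library size, and 2 of the 2 that remained with at least 10 counts in every library. Members called lower numbered 1, Cebpa, with Alb and 1, also Cebpa, without Trf. Of all genes tested, 4.15%, 1.45%, 0.738% and 0.538% were called higher with the mouse total, the marker sum, that sum without Trf and Alb. In the same order 40.3%, 54.5%, 64.7% and 66% were called lower. The other network genes called higher (55 of 95) numbered 27, 12, 7 and 4 on these scalings in the same order, 92 with the human and mouse total, and 12 of 23 with at least 10 counts in every library. Those called lower (4) numbered 14, 30, 40 and 42, then 0 and 2. With the human and mouse total 15711 of all 18018 genes were called higher and 119 lower. With at least 10 counts in every library, 872 of all 3552 genes were called higher and 873 lower. Without single replicates, 7 to 9 members and 42 to 61 network genes were higher, and 2 to 3 network genes lower. The 2 genes higher per hepatocyte marker count, Nr1i3 and Ppara, became 0 with Alb or without Trf.

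Of 172 fits of single members under alternatives, 135 kept direction and call, 14 lost and 6 gained the call, and 17 turned negative. With the hepatocyte marker sum Foxa1 was -0.69, Cebpa -0.88 and Nr1i2 -0.30. With Alb Hnf4a was -0.50, Foxa1 -1.74, Foxa2 -0.54, Foxa3 -0.97, Cebpa -1.91, Nr1h4 -0.70 and Nr1i2 -1.25. Without Trf they were -0.28, -1.40, -0.14, -0.68, -1.62, -0.49 and -1.04. The share of higher among all called genes was 55% with TMM, 44.8% with upper-quartile factors, 9.33% with the mouse total alone, 2.59% with the hepatocyte marker sum, 0.809% with Alb, 1.13% without Trf and 99.2% with the human and mouse total. It was 45% with limma-voom and 41% after thinning to the smallest mouse total. The median of all genes shifted by -1.80 with the mouse total alone and by -2.99 with the hepatocyte marker sum. Over all genes, 1611 were called higher without siControl replicate 3 and 3169 with it.

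Libraries with the same replicate number did not deviate together in all 3 pairs and were not taken as paired (r = 0.154, 0.213 and -0.055 over 9466 genes). With the replicate block, 9 members and 62 network genes were higher, and 3854 genes were higher and 2912 lower in all. Depth limits siControl: Nr1i3 and Foxa1 had 0 counts in siControl replicate 2, whose mouse total was 213022.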
